A study of Sparus aurata with 6 samples.

Results

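The transcripts described here were higher on the EOs-supplemented diet than on the control diet by every probe that measured them well. They numbered 76 of the 15156 expressed sequence tags (ESTs, single reads of complementary DNA) and contigs (sequences assembled from ESTs) on the array. Members were selected on their log2 intensities. A transcript was chosen when at least 2 of its probes were well above background on all spots of all 6 arrays, when each of these probes had its lowest EOs value above its highest control value, and when the mean difference over the probes was 0.58 or more on the log2 scale. The choice used the difference between diets itself, so that the differences below describe the chosen transcripts and no test was made on them.

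The fish were juvenile gilthead seabream of 155 g (Sparus aurata). One group was fed for 65 days a diet to which 0.5% of a blend of synthetic essential oils (EOs) had been added in microcapsules, made of garlic, carvacrol and thymol oils, and the other the same basal diet with no EOs. RNA of the mid-anterior intestine was combined into 3 pools of 4 fish per diet, and each pool was hybridised to 1 array. A value therefore belongs to a pool and not to a fish, and the labels do not state whether pools followed tanks.

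The mid-anterior intestine digests and absorbs nutrients, and its epithelium is a barrier with a large population of immune cells beneath it. Carvacrol and thymol are phenolic compounds of oregano and thyme, and garlic oil is rich in organosulfur compounds. All are lipophilic and meet the gut wall before other tissues. In whole tissue, fewer cells of a type and less RNA per cell cannot be told apart. Probes carry an EST or contig name but no gene name, and 0 of the 15156 names were found among the names of 32006 seabream genes in RefSeq. The study's list of changed genes gives gene names without probe, EST or contig names and could not be joined to them. The 76 transcripts are therefore described under their EST and contig names alone, and the tissue could not be checked against its marker genes. No probe sequence was available to print.

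Each array held 43803 spots other than controls, which carried 28793 probes. The share of spots well above background was 78.0, 89.3 and 88.1% in EOs pools 1, 2 and 3, and 77.5, 78.1 and 80.2% in control pools 1, 2 and 3. Spots with an outlier flag, which were dropped, numbered 66, 58 and 340 in EOs pools 1, 2 and 3. In control pools 1, 2 and 3 they numbered 125, 132 and 97. No spot was saturated, and precision is limited by there being 3 arrays per diet. All levels are log2 intensities after quantile normalization, which gives the 6 arrays the same distribution, averaged over the spots of a probe and then over the kept probes of a transcript. A difference is the EOs mean minus the control mean on this scale, on which 1 is a 2-fold change.

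Of the 20709 probes well above background on every array, 7.78% had all EOs values above all control values and 11.3% had all EOs values below them. Of the 5110 transcripts with at least 2 such probes, every probe was higher without overlap in 140 (2.74%) and lower without overlap in 226 (4.42%). With the limit of 0.58 on the mean difference, 76 (1.49%) were higher and 117 (2.29%) were lower. With all 6 pools, the higher transcripts were the smaller of these 2 sets on this scale. Without control pool 3, 170 were higher and 163 lower. With any other pool left out the higher set stayed the smaller. Without EOs pools 1, 2 and 3 it held 90, 119 and 114, against 182, 135 and 195 lower. Without control pools 1 and 2 it held 100 and 139, against 122 and 276 lower. The split also turned with the scaling of the arrays and with the intensities that were scaled. With each array set relative to its 75th percentile, the percentile to which the study normalized its arrays, 151 transcripts were higher and 72 lower. With the median of each array in place of the percentile, 44 were higher and 241 lower. With the log2 table that was also deposited, quantile-normalized in the same way, 132 were higher and 64 lower. With normexp background correction 63 were higher and 84 lower, and with outlier-flagged spots kept 64 were higher and 124 lower. The median difference over all kept probes was −0.02 with quantile normalization, 0.08 with the 75th percentile, −0.15 with the median and 0.09 with the deposited log2 table.

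Agreement between probes removed most candidates. In 230 of the 5110 transcripts at least 1 probe was higher by 0.58 or more without overlap. Every kept probe was without overlap in 86 of these, of which 76 reached the limit on the mean. In the other 144, some kept probe overlapped between diets. Of these, 120 had every kept probe higher in the mean, while 24 of the 230 had a kept probe that was lower in the mean. Among all 5110 transcripts, 239 had a mean difference of 0.58 or more whether or not their probes overlapped, and 163 of them were not chosen.

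**Figure D1:**
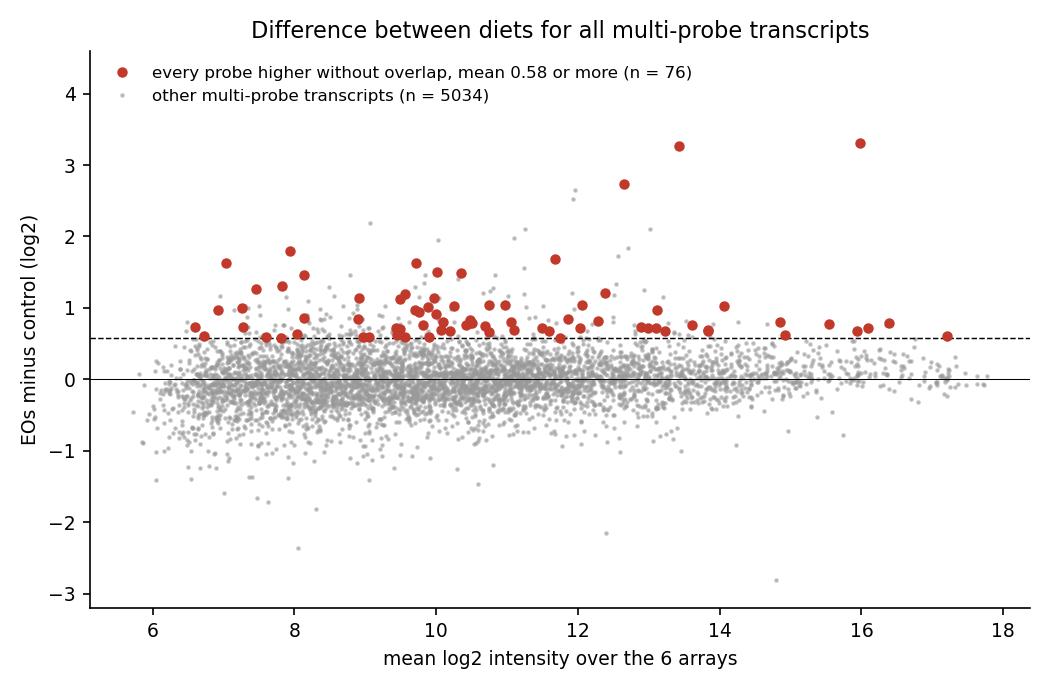
Difference between diets (EOs minus control, log2) against the mean log2 intensity over the 6 arrays for 5110 transcripts with at least 2 kept probes. The 76 transcripts with every probe higher without overlap and a mean difference of 0.58 or more (red) lie above the dashed line at 0.58, among 163 others (grey) that also passed it. Intensity depends on the probe as well as on the RNA, so that positions along the horizontal axis do not rank transcripts by abundance.

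Most of the 76 differences were small. The median was 0.79, a 1.73-fold change, against −0.01 over the 5110 transcripts. The difference lay between 0.58 and 0.75 for 32 transcripts and between 0.75 and 1 for 21. It lay between 1 and 1.5 for 15, between 1.5 and 2 for 5, and above 2 for 3. The standard error of the difference had a median of 0.21, and the difference exceeded 3 times its standard error in 60 of the 76. The rule favours differences that are large beside the spread between pools, so that this count describes the choice and is no test.

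The gap between the lowest EOs pool and the highest control pool says how far apart the diets stood at their nearest. Its median was 0.42. As a share of the mean difference of the same transcript it had a median of 46.4%. The gap exceeded the pooled SD of the transcript in 50 of the 76. The rule requires a gap above 0, so that these values too describe the choice. The widest gap, 1.285, belonged to Seabream_2006-01-03-CL3179Contig1. The narrowest, 0.04, belonged to cDN02P0006E01.F.ab1, which was singled out after its values were seen.

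**Figure D2:**
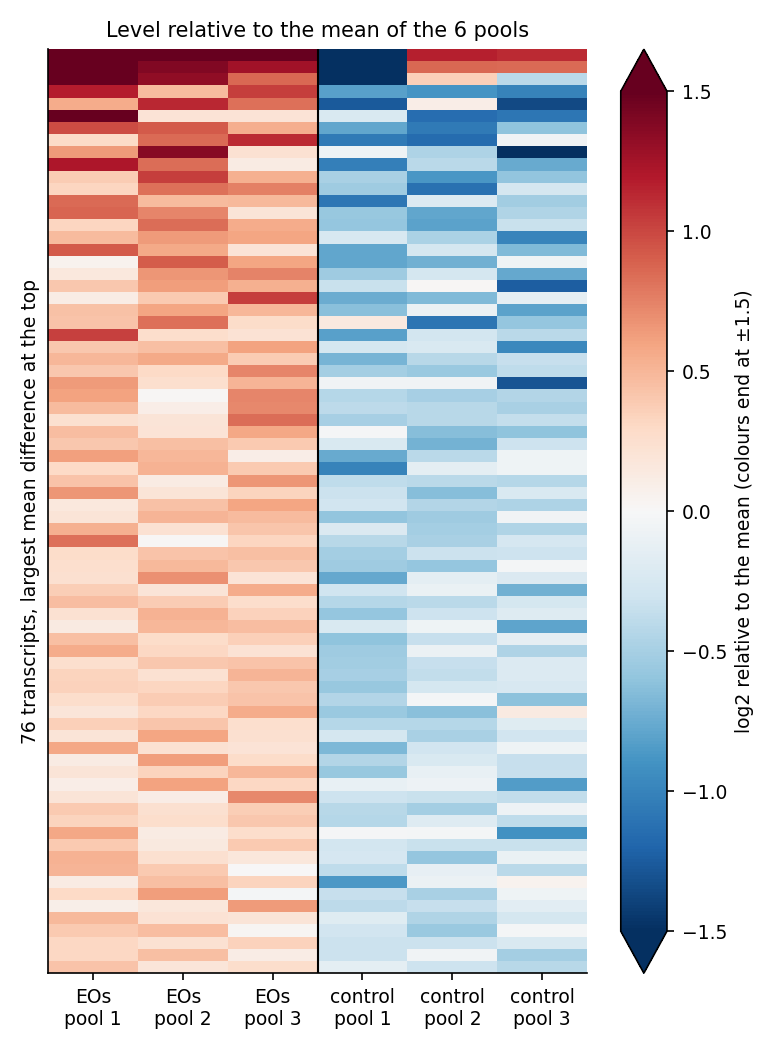
Level of the 76 transcripts (rows, largest mean difference at the top) in each pool (columns), as log2 relative to the mean over the 6 pools. EOs pools are mostly red and control pools mostly blue, and in the top 3 rows control pool 1 lies far below the other pools.

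The 3 largest differences rested on a single control pool. cDN01P0006H12.F.ab1 had log2 levels of 17.69, 17.65 and 17.57 in EOs pools 1, 2 and 3, and 8.74, 17.15 and 17.10 in control pools 1, 2 and 3. Its intensity before normalization was 228348, 240055 and 182299 in the EOs pools and 358, 154393 and 125300 in the control pools. On the normalized scale control pool 1 was 334-fold below the mean of the other control pools, while the EOs pools exceeded those 2 control pools by 0.51 only.

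The same held for cDN06P0004C09.F.ab1, with 15.69, 14.81 and 14.69 in the EOs pools and 6.81, 14.29 and 14.28 in the control pools. Control pool 1 was 178-fold below the mean of the other control pools. cDN01P0003G10.F.ab1 had 14.56, 13.97 and 13.52 in the EOs pools and 8.60, 13.01 and 12.24 in the control pools, with control pool 1 lower by 16.3-fold than the mean of the others. The mean differences of the 3 transcripts were 3.31, 3.27 and 2.73, with standard errors of 2.79, 2.51 and 1.39. Without control pool 1 they were 0.51, 0.78 and 1.38, and the first then fell below the limit of 0.58.

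The low values in control pool 1 were read by every probe of these transcripts that was bright elsewhere. The 2 kept probes of cDN01P0006H12.F.ab1, one of them printed in 15 spots, gave 8.80 and 8.68 there. Another probe, left out because its only spot carried an outlier flag in EOs pool 3, gave 8.73. One more was not well above background on any array. For cDN06P0004C09.F.ab1 the kept probes gave 7.05 and 6.56, and another probe, at 5.15, was not well above background in control pool 1 only. The 3 probes of cDN01P0003G10.F.ab1 gave 8.69, 8.69 and 8.41.

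A drop of this kind was seen in few of the transcripts counted. Only probes well above background on every array were kept, so that probes falling to background in 1 pool were left out of this count. Of the 5110 transcripts, 10 had control pool 1 more than 2 below every other pool, and these 3 were among them. In the 7 others the EOs mean stood between −0.23 and 0.70 relative to control pools 2 and 3. Within the control diet, pool 1 was more than 2 below both other pools for 13 transcripts, pool 2 for 0 and pool 3 for 5. Within the EOs diet the counts were 3, 5 and 2 for pools 1, 2 and 3. Pools more than 2 above both others of their diet were also counted. There were 5, 19 and 2 such transcripts for control pools 1, 2 and 3, and 2, 5 and 21 for EOs pools 1, 2 and 3. The share of spots well above background in control pool 1 was within 3 percentage points of those in the other control pools. This share covers all spots of an array, and the cause of the low values was not tested.

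**Figure D3:**
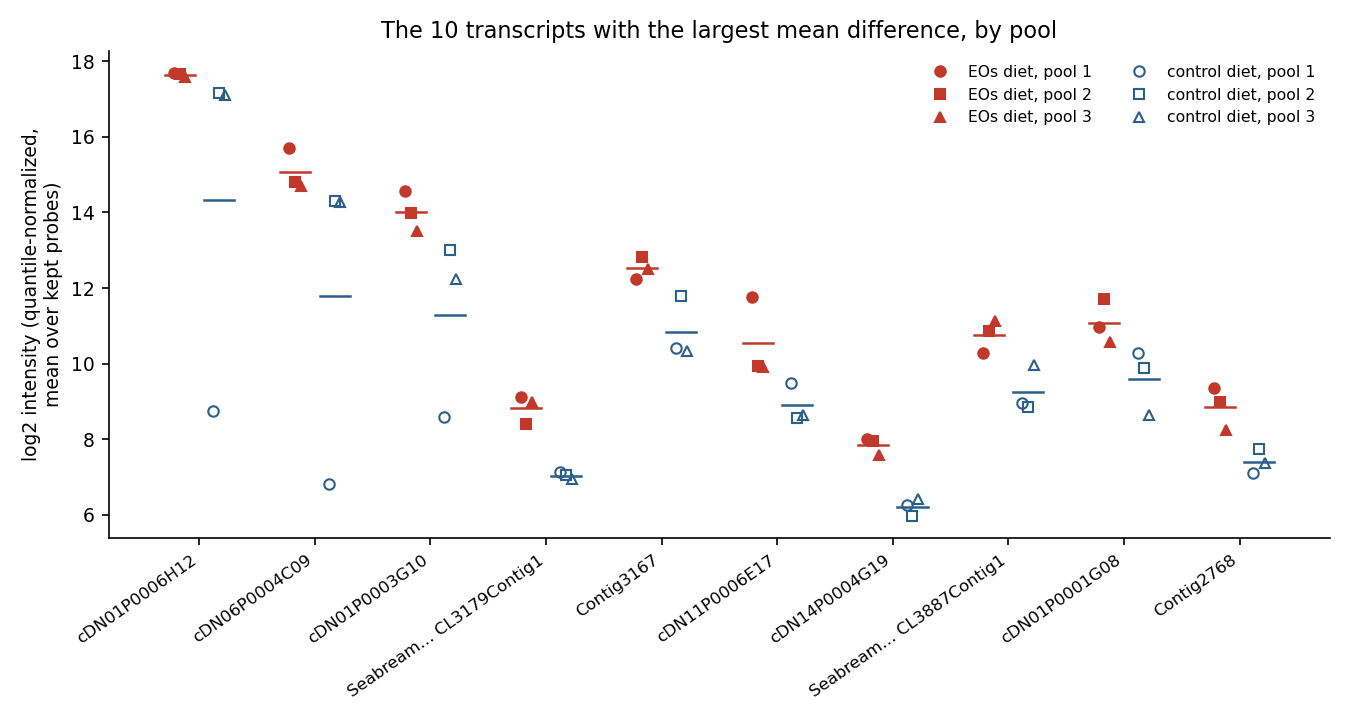
Log2 intensity of the 10 transcripts with the largest mean difference in each pool, with the mean of a diet as a bar (EOs diet filled red on the left, control diet open blue on the right, 3 pools each). The names omit the ending .F.ab1 and part of the Seabream prefix. In the first 3 transcripts control pool 1 lies at 8.74, 6.81 and 8.60, far below the other control pools, which lie under the EOs pools.

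For the next 7 transcripts the difference stayed at 0.99 or more whichever pool was left out. Seabream_2006-01-03-CL3179Contig1 had 9.12, 8.42 and 8.98 in the EOs pools and 7.13, 7.05 and 6.94 in the control pools. Its difference was 1.80 (3.47-fold, SE 0.22), and with any 1 pool left out it was at least 1.66. This was the transcript with the widest separation of the diets, and its control pools lay within 0.2 of each other.

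cDN14P0004G19.F.ab1 was of the same kind, with 8.01, 7.95 and 7.58 in the EOs pools and 6.26, 5.98 and 6.43 in the control pools. Its difference was 1.62 (3.08-fold, SE 0.19). Both transcripts were dim, with intensities before normalization of 433.2 to 592 in the EOs pools and 65.0 to 168 in the control pools for the first, and 235.8 to 329 in the EOs pools and 42.4 to 84.0 in the control pools for the second. Their sizes depended on the processing. With the 75th percentile of each array the differences were 2.15 and 2.07, and with normexp background correction they were 1.39 and 1.12.

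Contig3167 was measured by 3 probes in 17 spots. It had 12.23, 12.81 and 12.51 in the EOs pools and 10.42, 11.78 and 10.32 in the control pools, a difference of 1.68 (SE 0.50). Control pool 2 stood nearer to the EOs pools than to the other control pools.

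cDN11P0006E17.F.ab1 was high in a single EOs pool, with 11.76, 9.93 and 9.92 in the EOs pools and 9.49, 8.58 and 8.64 in the control pools. Its difference was 1.63 (SE 0.68), and 1.03 without EOs pool 1. In cDN01P0001G08.F.ab1, with 10.98, 11.71 and 10.57 in the EOs pools and 10.28, 9.88 and 8.64 in the control pools, the difference of 1.49 (SE 0.59) was 0.99 without control pool 3. In both, the lowest EOs pool and the highest control pool were separated by less than the standard error of the difference. This was also so for Contig3167 and Seabream_2006-01-03-CL3887Contig1, with gaps of 0.46 and 0.33.

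Seabream_2006-01-03-CL3887Contig1 had 10.29, 10.86 and 11.13 in the EOs pools and 8.95, 8.85 and 9.96 in the control pools, a difference of 1.51 (SE 0.43). Contig2768 had 9.35, 8.98 and 8.26 in the EOs pools and 7.11, 7.73 and 7.38 in the control pools, a difference of 1.46 (SE 0.37). The order of the pools thus differed from one transcript to the next, and no EOs pool was the highest in all 7.

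The other 66 transcripts had differences of 1.30 or less, with standard errors between 0.05 and 0.43. Over all 76, the highest EOs value came from pools 1, 2 and 3 in 27, 26 and 23 transcripts. The lowest control value came from pools 1, 2 and 3 in 30, 24 and 22 transcripts. No share over the 5110 transcripts was computed for the highest EOs or the lowest control value. The highest control value came from pools 1, 2 and 3 in 20, 23 and 33 transcripts, while over the 5110 transcripts these pools were the highest in 34.9, 21.9 and 43.2%. The lowest EOs value came from pools 1, 2 and 3 in 28, 23 and 25 of the 76. Over the 5110 transcripts these pools were the lowest of the EOs pools in 25.7, 46.8 and 27.6%. The rule acts on the lowest EOs and the highest control values, and none of these shares was tested.

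The spread between pools of one diet is given beside that of all 5110 transcripts, which include the 76. The rule acts on this spread, so that the values describe the choice and nothing is read from the contrast. The pooled SD had a median of 0.26 over the 76, against 0.24 over the 5110 transcripts. It exceeded 1 in 3 of the 76, the 3 that were low in control pool 1, and in 101 of the 5110 (1.98%). The smallest, 0.06, belonged to Contig160, with 9.87, 9.79 and 9.91 in the EOs pools and 9.24, 9.23 and 9.33 in the control pools. The control pools were more spread than the EOs pools in 46 of the 76. No share over the 5110 was computed, so that this count stands without a background.

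The transcripts with the brightest probes on the EOs diet included, beside cDN01P0006H12.F.ab1, the following 4. Contig1684 had 16.93, 16.62 and 16.81 in the EOs pools and 16.18, 15.88 and 15.95 in the control pools. Contig3252 had 16.43, 16.33 and 16.61 in the EOs pools and 15.60, 15.73 and 15.90 in the control pools. Contig1750 had 16.13, 16.05 and 16.65 in the EOs pools and 15.63, 15.60 and 15.57 in the control pools. The differences of these 3 contigs were 0.78, 0.71 and 0.68, with standard errors of 0.13, 0.12 and 0.19, and their diets were separated by gaps of 0.44, 0.43 and 0.42. These sizes depended on the scaling. They were 0.54, 0.46 and 0.41 with the 75th percentile of each array, and 0.32, 0.23 and 0.18 with its median. With outlier-flagged spots kept they were 0.61, 0.53 and 0.50. Before normalization EOs pool 3 had the lowest intensity of the EOs pools for all 3 contigs, while after it this pool was the highest for Contig3252 and Contig1750. cDN11P0005I23.F.ab1 had 17.33, 17.67 and 17.54 in the EOs pools and 16.34, 17.12 and 17.26 in the control pools, a difference of 0.60 (SE 0.30). Its gap was 0.07, and the difference was 0.32 without control pool 1 and 0.29 with the median of each array. Before normalization its intensity ranged from 178338 to 244045 in the EOs pools and from 86090 to 152702 in the control pools.

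The 76 transcripts were measured by 213 kept probes, 3 each for 61 transcripts and 2 each for 15, in 293 spots. The differences given by the probes of one transcript were compared. The highest minus the lowest had a median of 0.13 and was under 0.2 in 55 of the 76. The rule asks every kept probe to be higher without overlap, so that some agreement follows from the choice. These ranges describe the chosen transcripts and were not set beside those of other transcripts. The largest disagreement, 0.75, was that of cDN05P0001I12.F.ab1, singled out after its values were seen, whose probes gave 0.76 and a value higher by that amount. In 15 transcripts, 19 probes had a difference under 0.58, the lowest being 0.35. Repeated spots of one probe on one array, available for 54 of these probes, had a median SD of 0.07.

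**Figure D4:**
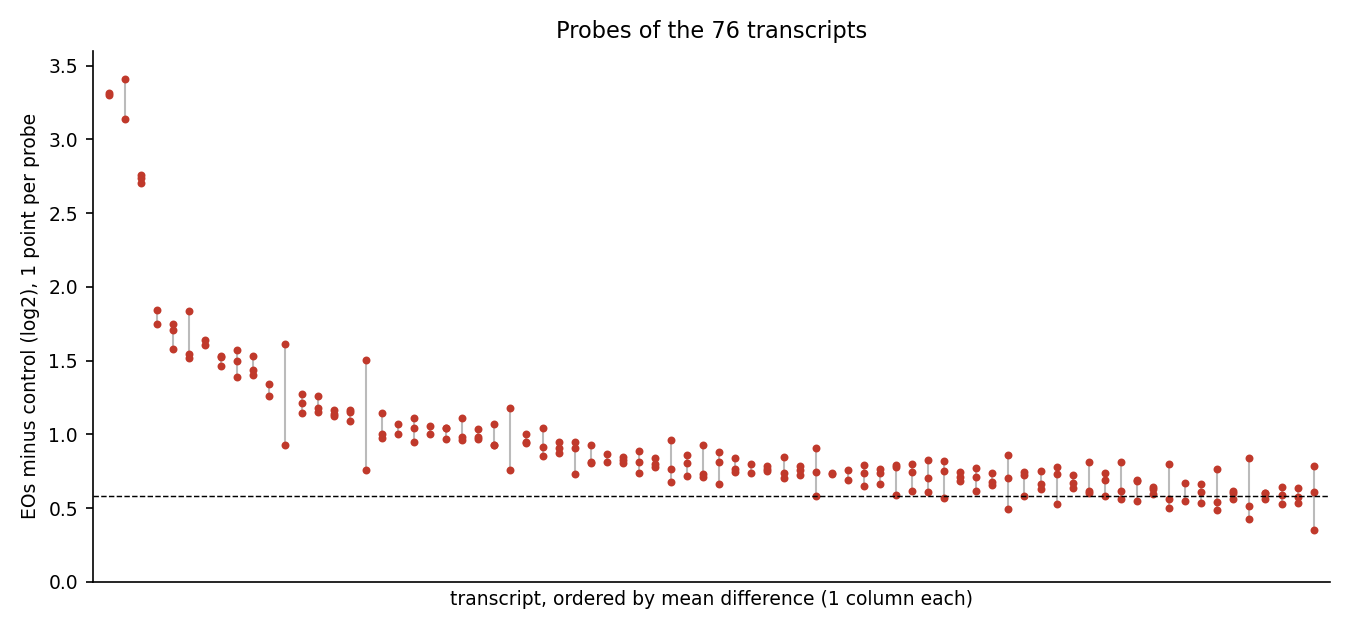
Difference between diets (EOs minus control, log2) of each of the 213 kept probes, with 1 column per transcript ordered by mean difference and a grey line joining its probes. In 55 of the 76 transcripts the probes lie within 0.2 of each other, and 19 probes fall below the dashed line at 0.58. Every kept probe had to be higher without overlap, so that some of this agreement follows from the choice.

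Probes of one transcript were also compared by the variation between pools of the same diet. The means of both diets were subtracted from each probe, and the remaining 6 values were correlated between the probes of a transcript. This correlation had a median of 0.82 over the 76 and of 0.72 over the 5110 transcripts, with lower quartiles of 0.69 and 0.38. It was over 0.5 in 61 of the 76 (80.3%) and in 68.0% of the 5110, and it was below 0 in 3 of the 76. These 3, named after their values were seen, were cDN10P0005H10.F.ab1, Contig160 and cDN03P0001M23.F.ab1, whose pooled SDs were 0.10, 0.06 and 0.15. The rule acts on the spread within a diet too, the probes share the same 6 arrays and each correlation has 6 points, so that it is given as a description and nothing is read from the contrast with the 5110. The spots of a transcript were spread over the array, with a median distance of 274 of the 532 rows between the outermost spots.

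A further 17 probes of 16 of the transcripts were not kept. The spots of 3 had been flagged on an array. The other 14 were not well above background on every array, and 13 of them were higher on the EOs diet in the mean, 8 without overlap. The median difference of the 14 was 0.99. Of the 14, 2 were not well above background on any array, and both are among those counted as higher. That of Contig3167 is also among the 8 without overlap, with a lowest EOs value of 2.94 and a highest control value of 2.70. Among the 8 is also a probe of Seabream_2006-01-03-CL4522Contig1, singled out after its values were seen. It was well above background in no control pool, and the 2 values were 3.85 and 3.84. No share over all probes that were not kept was computed, so that these counts stand without a background. The exception, a probe of cDN09P0002H17.F.ab1, named for this reason after the values were seen, was lower by 0.77 on the EOs diet in the mean, against a mean difference of 0.61 by the 2 kept probes of that EST. Another probe of Seabream_2006-01-03-CL3179Contig1 was well above background in all EOs pools and in 2 control pools, with a difference of 2.23. These probes belong to the same arrays and the same contrast, and give no independent support.

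The limit of 0.58 cut through a continuous range. Just inside it, Contig160, cDN06P0002L02.F.ab1 and cDN01P0001I16.F.ab1 had differences of 0.59, 0.58 and 0.58. cDN06P0002L02.F.ab1 had 12.05, 12.20 and 11.86 in the EOs pools and 11.43, 11.69 and 11.23 in the control pools, and cDN01P0001I16.F.ab1 had 8.24, 7.99 and 8.08 in the EOs pools and 7.67, 7.51 and 7.39 in the control pools. Just outside it, cDN04P0006A08.F.ab1, Contig3336 and cDN13P0004E01.F.ab1 had differences of 0.575, 0.573 and 0.569, also with every probe free of overlap. cDN04P0006A08.F.ab1 had 12.32, 12.45 and 12.41 in the EOs pools and 11.71, 11.73 and 12.03 in the control pools. Contig3336 had 11.85, 11.72 and 11.44 in the EOs pools and 11.06, 11.10 and 11.12 in the control pools. With the median of each array the differences of cDN06P0002L02.F.ab1, cDN04P0006A08.F.ab1 and Contig3336 were 0.34, 0.31 and 0.34. With the 75th percentile those of cDN01P0001I16.F.ab1 and cDN13P0004E01.F.ab1 were 0.94 and 1.02, and with normexp background correction that of cDN01P0001I16.F.ab1 was 0.38. In all, 64 transcripts met the rest of the rule with a smaller mean difference.

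Each pool was left out in turn and the other 5 arrays were normalized anew. The lack of overlap that chose the transcripts fixes the sign of the difference here, so that only its size is described. In 51 transcripts the difference stayed at 0.58 or more whichever pool was left out, and in 25 it did not. The number that fell below 0.58 was 10, 7 and 4 without EOs pools 1, 2 and 3, and 11, 6 and 8 without control pools 1, 2 and 3. The lowest value reached was 0.32, that of cDN11P0005I23.F.ab1 without control pool 1. The largest decreases were those of cDN01P0006H12.F.ab1, cDN06P0004C09.F.ab1 and cDN01P0003G10.F.ab1 without the same pool.

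**Figure D5:**
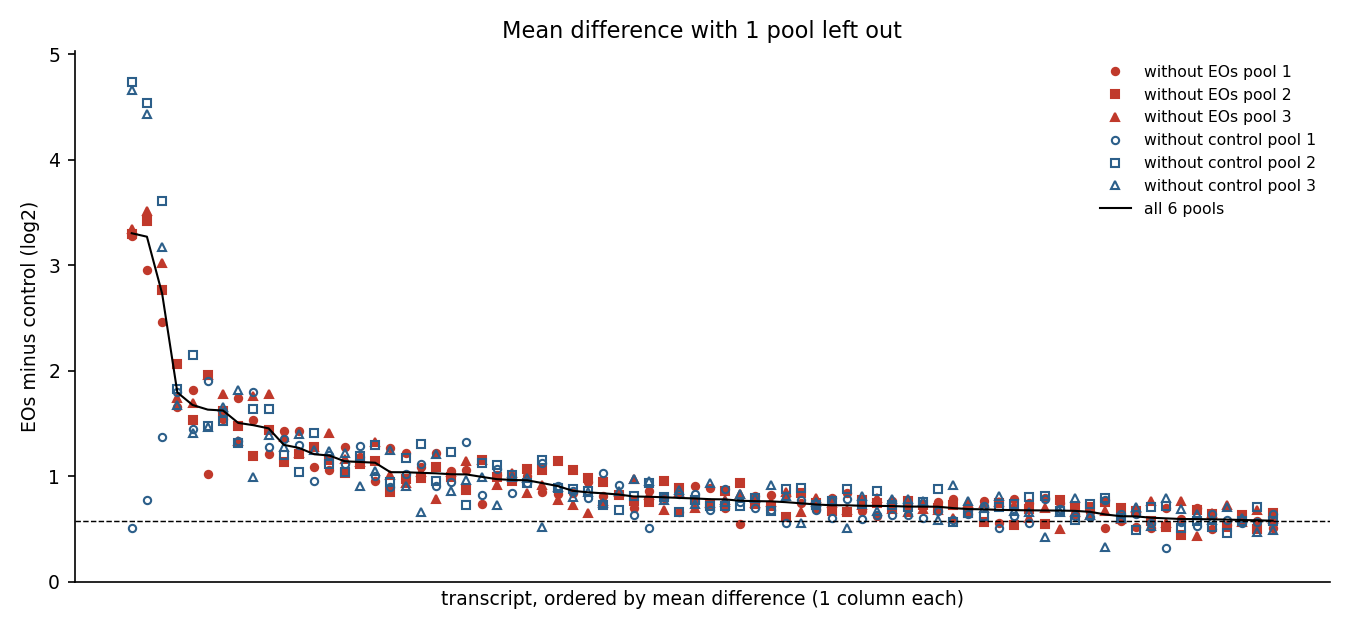
Mean difference (EOs minus control, log2) of the 76 transcripts with 1 of the 6 pools left out, ordered as for all 6 pools (black line). Filled red symbols leave out an EOs pool and open blue symbols a control pool. In the first transcript the value without control pool 1 is 0.51, against 3.31 with all pools.

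The names of the transcripts give only the kind of sequence they came from. Single ESTs of the cDN clones made up 40 of the 76, or 1.90% of the 2106 such transcripts with at least 2 kept probes. Contigs without a prefix made up 23 (1.48% of 1549), contigs of the Seabream assembly 9 (0.73% of 1234), SCT clones 2 (1.25% of 160) and Mackenzie contigs 2 (3.33% of 60). The background over all names was 1.49%. The clone names also give a plate, and 4 of the 31 measured clones of plate cDN10P0006 were among the 76, a plate noticed after the values were seen. These 4 were cDN10P0006L02.F.ab1, cDN10P0006A24.F.ab1, cDN10P0006B15.F.ab1 and cDN10P0006J20.F.ab1, with differences of 1.30, 1.27, 1.02 and 0.75. Whether clones of 1 plate or different names stand for the same gene cannot be read from the names.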

How the data were processed

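Expression was measured on 6 one-colour Agilent arrays, 3 per diet. For each array the authors deposited spot intensities, background-subtracted and detrended by Feature Extraction 10.7.3.1 as the file headers give it, with no normalization between arrays. They also deposited a table of log2 values, which differed by no more than 5e-09 from log2 of the intensity after background subtraction. This table served as an alternative only.

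Control spots were removed, as were spots with an outlier flag. Log2 intensities were quantile-normalized over spots with limma 3.58.1 in R 4.3.3, averaged per probe and then per EST or contig, and summarised with Python 3.11.15 and pandas 2.3.3. Groups followed the sample titles. The selection code was checked on simulated data.

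Members and lists were chosen with earlier results of these data known. No test was made, because the rule used the contrast. Transcripts named are the 10 with the largest difference, 6 with the most probes (ties by difference), 5 with the brightest probes, and 3 on either side of the limit. Others are marked as named after their values were seen. The gene lists and markers prepared could not be used without gene names. Alternatives covered scaling, background, filters and single pools. Repeated pools are the only replicates.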

Additional observations from a re-analysis of the deposited data

How the results depend on the processing

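The 76 transcripts and their 213 probes (1.49% of multi-probe transcripts) became 151 and 422 (2.95%) with the 75th percentile, 44 and 117 (0.86%) with the median, and 132 and 371 (2.58%) with the deposited log2 values. Of the 76, 66, 33 and 66 were chosen again under these settings. The number was 23 with a limit of 1 and 140 with no limit on the mean difference, which follows from the limits themselves. With 1 pool left out it ranged from 90 to 170 transcripts, from 252 to 489 probes and from 1.74 to 3.32%, of which 65 to 72 belonged to the 76. Without EOs pool 2 it was 119, without control pool 2 it was 139 and without control pool 3 it was 170. With 5 arrays the lack of overlap is asked of fewer values and detection of fewer arrays, and the arrays were normalized anew. The causes of these changes in number were not tested.

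Normexp on the median signal (63, chosen after the data were seen because the files hold no mean signal), keeping flagged spots (64), both looser filters on dim probes (85 and 80) and at least 3 probes (61) stayed within 1.5 times the count. The median difference over the 76 lay between 0.64 with the median and 0.89 with the deposited log2 values. Of the 260 values of the 20 named transcripts, 23 moved by more than an SD between pools. This SD was the transcript's own pooled SD, or the members' median of 0.26 for the 3 just outside the limit. With an SD of 3.42, the fall of cDN01P0006H12.F.ab1 from 3.31 to 0.51 without control pool 1 was not counted. The falls of cDN06P0004C09.F.ab1 and cDN01P0003G10.F.ab1, with SDs of 3.08 and 1.71, were not counted either. The 23 therefore leave out the largest changes and do not measure stability.

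With the pool number as a replicate block, the median standard error of the difference was 0.20, against 0.21 unpaired. For single transcripts it differed more, at 0.32 against 0.68 for cDN11P0006E17.F.ab1 and 0.41 against 0.37 for Contig2768. Deviations of same-numbered pools from their diet means correlated by 0.19, 0.39 and −0.01 for pools 1, 2 and 3. Pools were treated as unpaired because the labels do not state a pairing. Whether same-numbered pools share variation was not tested. The lowest intensity of a member was 38.5. Whether dim probes limited the size of the differences was not tested.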
